A study of Rattus norvegicus with 6 samples.

Results

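The genes of 5 solute carriers, *Slc13a4*, *Slc6a20b*, *Slc6a13*, *Slc22a6* and *Slc22a2*, were followed across the ventromedial hypothalamus (VMH) libraries of rats exposed to predator odor (PO) or control odor. They are 5 of the 29039 features in the deposited count table, and they were picked because each was lower after PO in these same libraries and encodes a membrane carrier of the Slc6, Slc13 or Slc22 family. Their fold changes between the groups are therefore given as a description, with no test. All 6 animals were Sprague Dawley rats (male, per the study's methods) with a labelled age of 10 months. The 3 PO rats (P8, P13 and P14) had a towel used as ferret bedding in the home cage for 20 minutes, and the 3 control odor rats (C2, C3 and C4) had a clean towel for the same time. Both groups had been handled and given control odor daily for 2 weeks beforehand. Each rat gave 1 poly-A library from bilateral VMH micropunches, a bulk sample of all cells in the punch. The labels give no batch or pairing.

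Solute carriers move small molecules across cell membranes without spending ATP directly. Those of the Slc6 family take up amino acids and transmitters together with sodium, those of Slc13 take up sulfate or dicarboxylates together with sodium, and those of Slc22 move organic anions or cations. In brain, several of them are known from the layers that part blood from cerebrospinal fluid, the leptomeninges and the choroid plexus, where they clear or supply solutes of the fluid. *Slc13a4* encodes a sodium-coupled sulfate carrier. *Slc6a20b* is a rodent gene for a carrier of the SIT1 type, a group known for imino acids such as proline. *Slc6a13* encodes the GABA and taurine carrier GAT2. *Slc22a6* encodes the organic anion carrier OAT1 and *Slc22a2* the organic cation carrier OCT2, both best known from the kidney tubule.

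The RefSeq promoter table (build GRCr8) held windows for 3 of the 5 genes, each running from 250 bases before to 50 after a start site. *Slc6a13* and *Slc22a6* had no entry. The 3 windows below are shown because the genes were chosen for the same fall, and matches to the motifs searched stand in capitals. The *Slc13a4* window is chr4:64955937-64956236, that of *Slc6a20b* is chr8:132158373-132158672 and that of *Slc22a2* is chr1:50710970-50711269, all on the minus strand and written 5′ to 3′ along the gene.
Slc13a4: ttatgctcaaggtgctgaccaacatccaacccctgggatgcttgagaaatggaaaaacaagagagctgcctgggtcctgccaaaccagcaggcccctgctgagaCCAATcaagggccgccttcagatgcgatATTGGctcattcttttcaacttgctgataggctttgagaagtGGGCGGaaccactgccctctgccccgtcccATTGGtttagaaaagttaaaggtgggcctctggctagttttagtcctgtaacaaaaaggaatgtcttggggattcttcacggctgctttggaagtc
Slc6a20b: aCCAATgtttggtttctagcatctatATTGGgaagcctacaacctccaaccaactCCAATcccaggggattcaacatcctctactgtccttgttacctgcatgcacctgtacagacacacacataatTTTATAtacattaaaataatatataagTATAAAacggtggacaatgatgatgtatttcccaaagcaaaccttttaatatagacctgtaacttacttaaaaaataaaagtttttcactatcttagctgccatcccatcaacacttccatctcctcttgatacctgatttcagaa
Slc22a2: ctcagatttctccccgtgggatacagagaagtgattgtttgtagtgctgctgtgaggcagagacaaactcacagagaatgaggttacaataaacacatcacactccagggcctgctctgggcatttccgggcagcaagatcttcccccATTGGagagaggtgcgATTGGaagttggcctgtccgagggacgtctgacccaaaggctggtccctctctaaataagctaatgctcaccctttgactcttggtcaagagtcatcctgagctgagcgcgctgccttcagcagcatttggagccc

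Each window held CCAAT or its reverse complement, the box bound by the factor NF-Y, 3 times in *Slc13a4*, 3 times in *Slc6a20b* and 2 times in *Slc22a2*. Of all 33469 windows in the table, 37.5% held it at least once on either strand. In *Slc13a4* the 3 copies began 146, 118 and 46 bases before the start, and a GC box (GGGCGG, in 33.1% of windows) began 76 bases before it. In *Slc22a2* both copies were on the opposite strand and began 102 and 86 bases before the start. *Slc6a20b* carried its copies 249, 224 and 195 bases before the start, and TATAAA (in 14.2% of windows) 96 bases before it on the gene's strand and 123 bases before it on the other. A further *Slc6a20b* window in the table held no match. Overlaps between motifs did not occur among these matches. No window of the 3 genes held TGACGTCA (the cAMP response element, 1.83% of windows), AGGTCA (a nuclear receptor motif, 16.2%), TGTTTAC (a forkhead motif, 3.78%) or the glucocorticoid response element (0.0149%). The GC content was 50.7% in *Slc13a4*, 36.0% in this window of *Slc6a20b* and 52.7% in *Slc22a2*, beside a median of 51.7% over all windows.

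The PO libraries held between 17479862 and 20316213 counts and the control odor libraries between 15835375 and 18370871. Of the 29039 features, 16685 had enough counts to be tested with edgeR, and its quasi-likelihood test with Benjamini-Hochberg adjustment called 24 higher and 35 lower after PO. With library size alone in place of TMM scaling these counts were 16 and 87. Reads across splice junctions made up 24.84% to 25.76% of reads in the PO libraries and 25.73% to 25.84% in the control odor libraries. A gene name could be given to 170 of the features, and each named feature had been called by the study itself. The VMH label could not be checked, because no name was at hand for any marker of VMH neurons, of neurons in general or of astrocytes, oligodendrocytes and microglia.

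*Slc13a4* (ENSRNOG00000011184), the sulfate carrier, had 2.17, 1.16 and 1.03 FPKM (fragments per kilobase of gene, scaled to library depth) in the PO libraries P8, P13 and P14, against 7.19, 6.94 and 10.7 FPKM in the control odor libraries C2, C3 and C4. The raw counts behind these were 162, 78 and 66 in the PO libraries and 455, 404 and 723 in the control odor libraries. P8 stood above the other PO libraries and C4 above the other controls, and the groups did not overlap. In CPM, each count divided by the TMM-scaled depth of its library, the mean was 5.45 ± 2.3 after PO and 29.8 ± 7.93 after control odor (SD, n = 3 each). The log2 fold change fitted by edgeR, PO over control odor, was -2.44 with a standard error of 0.34, a level 5.43-fold lower after PO. In each PO library the gene sat between the 28.9 and 41.0 percentile of FPKM among detected genes, against 58.3 to 66.3 in the control odor libraries.

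*Slc6a13* (ENSRNOG00000012876), the GABA and taurine carrier, had 3.59, 2.81 and 3.02 FPKM in P8, P13 and P14, against 6.81, 8.13 and 12.6 FPKM in C2, C3 and C4. It was the highest of the 5 in every PO library. The 3 PO values lay close together and the 3 control values spread further, with no overlap. Its mean was 6.51 ± 0.839 CPM after PO and 18.3 ± 6.22 CPM after control odor (SD, n = 3 each), from 104 to 148 counts per PO library and 238 to 469 per control library. The log2 fold change was -1.49 (standard error 0.23), which is 2.8-fold lower after PO.

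*Slc6a20b* (ENSRNOG00000006010), also of the Slc6 family, followed the same outline. Levels were 2.62, 2.1 and 2.08 FPKM in P8, P13 and P14, against 5.15, 6.57 and 8.45 FPKM in C2, C3 and C4. Again P8 was the highest PO library and C4 the highest control, without overlap of the groups. The mean was 6.76 ± 0.867 CPM after PO and 19.2 ± 4.9 CPM after control odor (SD, n = 3 each). This amounts to -1.5 on the log2 scale (standard error 0.19), or 2.83-fold lower after PO. The authors' table of called genes names this feature *Slc6a20*, and the study's text *Slc6a20b*. In the RefSeq gene order *Slc6a20b* lies next to its near copy *Slc6a20a*, so reads shared by the pair could have been counted for either or for neither. An adjoining family member was also found for *Slc6a13* (*Slc6a12*) and *Slc22a6* (*Slc22a8*), but not for *Slc13a4*. Between 6.34% and 6.93% of reads per library mapped to multiple places, and the sources used here do not say whether the counting used strand.

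*Slc22a6* (ENSRNOG00000018215), the organic anion carrier OAT1, was low in the PO libraries. There the gene sat between the 15.3 and 24.3 percentile of FPKM among detected genes, against 37.6 to 51.2 in the control odor libraries. It had 0.731, 0.345 and 0.386 FPKM in P8, P13 and P14, against 2.12, 2.02 and 4.44 FPKM in C2, C3 and C4. The PO values rest on 33, 14 and 15 counts and the control odor values on 81, 71 and 181. C4 stood apart, at 2.18 times the mean of the other 2 controls in CPM, and the groups did not overlap. The mean was 1.11 ± 0.475 CPM after PO and 6.23 ± 3.05 CPM after control odor (SD, n = 3 each). The log2 fold change was -2.47 (standard error 0.41), or 5.56-fold lower after PO.

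*Slc22a2* (ENSRNOG00000016625), the organic cation carrier OCT2, was the lowest of the 5 in every library. It had 0.321 FPKM in P8 and 0 in P13 and P14, against 1.22, 1.76 and 1.77 FPKM in C2, C3 and C4. These values rest on 14 counts in P8 (95% Poisson interval 7.65 to 23.5, which covers counting error only) and none in P13 or P14, against 45, 60 and 70 in the controls. The control odor libraries were thus close to each other, while the PO group held 1 library with reads and 2 without. A count of 0 was taken as at most 3 counts per library, a mean of 0.173 CPM over P13 and P14. The control odor mean was 3.33 ± 0.681 CPM (SD, n = 3). At that floor, with the control values taken as exact, *Slc22a2* was at least 19.3-fold lower in those 2 libraries. It was at least 14.8-fold lower than the lowest control. The interval used for P8 has an upper limit of 3.69 counts at a count of 0, which would make both bounds smaller. The fitted log2 fold change over all 3 PO libraries was -3.7 (standard error 0.91). This gene passed the filter on low counts (0.56 CPM) in only 1 PO library and so entered the fit through the control odor group, whereas the other 4 genes passed it in all 6 libraries.

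**Figure D1:**
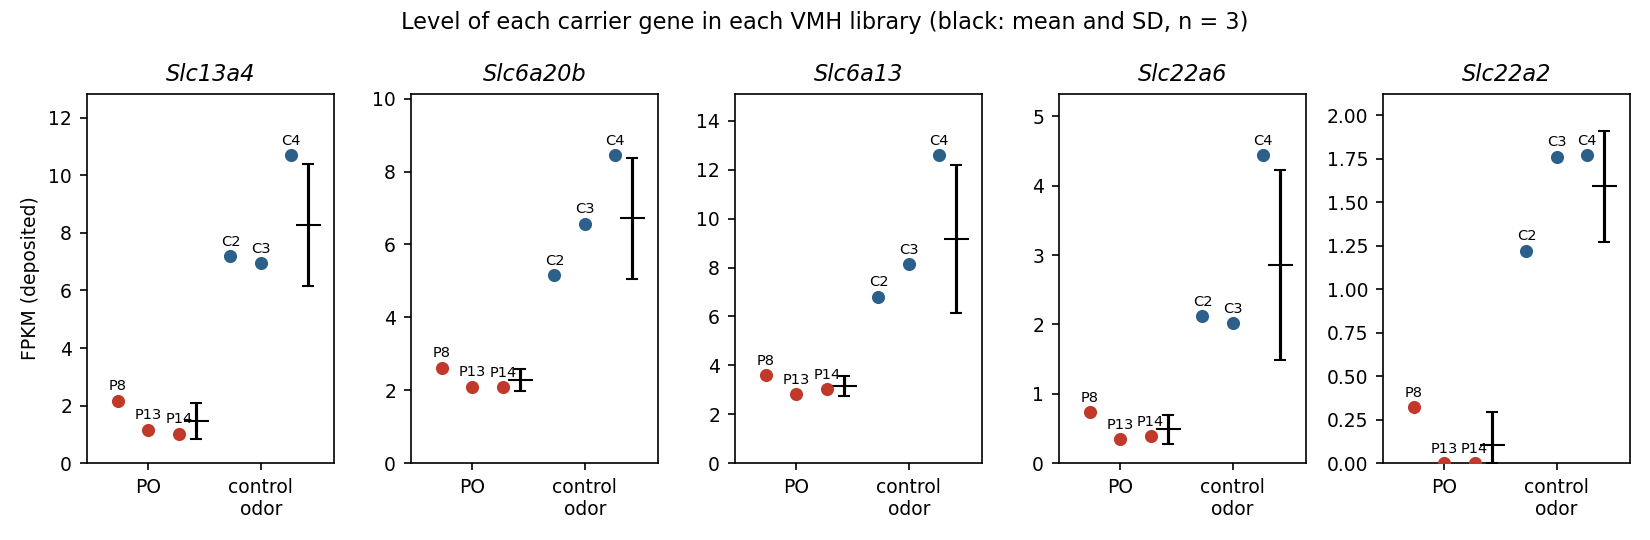
FPKM of each carrier gene (vertical axis, from 0, a scale of its own in each panel) in the 3 PO libraries (red, left) and the 3 control odor libraries (blue, right), with the mean and SD in black (n = 3; the lower bar of *Slc22a2* after PO ends at 0). P8 is the highest PO library and C4 the highest control odor library in all 5 panels, and no PO point reaches a control odor point.

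In CPM, the highest PO library lay under the lowest control odor library throughout, and that control was 3.05 times it in *Slc13a4*, 1.88 times in *Slc6a20b*, 1.82 times in *Slc6a13*, 2.64 times in *Slc22a6* and 3.64 times in *Slc22a2*. All 3 PO libraries lay below all 3 control odor libraries for all 5 genes and for 13.2% of the genes tested. The members were chosen on this contrast, so nothing is read from that count, nor from the next 2. By edgeR, *Slc6a20b*, *Slc6a13* and *Slc22a6* passed an adjusted p of 0.05 as lower, as did 0.21% of all genes tested. By DESeq2, the tool of the study, the same 3 and *Slc13a4* passed as lower, as did 2.08% of the 13707 genes with an adjusted p, and *Slc22a2* was given none. None of the 5 passed with limma voom or with limma on log2 FPKM at either pseudocount. The count by edgeR was 0 without P14, 1 without P13, C3 or C4, 2 without C2 and 4 without P8. Without P8 the 4 include *Slc22a2*, whose remaining PO libraries are both at 0, and leave out *Slc6a13*. The median log2 fold change of the 5 genes was -2.44, beside -0.012 over all genes tested.

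By edgeR the fold changes formed a pair of tiers, a description only, since the genes were chosen on this contrast. *Slc13a4*, *Slc22a6* and *Slc22a2* held places 20, 19 and 4 from the lowest of 16685 log2 fold changes, while *Slc6a20b* and *Slc6a13* held places 86 and 88. With limma on log2(FPKM + 1), *Slc22a6* (-1.33) and *Slc22a2* (-1.23) lay beside *Slc6a20b* (-1.22) and *Slc6a13* (-1.26), and only *Slc13a4* (-1.93) stood apart. At a pseudocount of 0.1 the tiers were kept. Since the groups did not overlap, leaving out any 1 library could not turn the sign of a fold change, and only the size is of interest. It lay between -2.84 and -2.2 for *Slc13a4*, -2.89 and -1.99 for *Slc22a6*, -1.66 and -1.29 for *Slc6a20b* and -1.66 and -1.17 for *Slc6a13*. In these 4 genes the smallest change came without C4. *Slc22a2* ran from -3.86 to -3.13, with no fitted value used without P8, where every PO library left was at 0. With C4 and P8 both left out, a choice made after the data were seen, the values were -2.61 for *Slc13a4*, -1.4 for *Slc6a20b*, -1.28 for *Slc6a13* and -2.41 for *Slc22a6*.

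**Figure D2:**
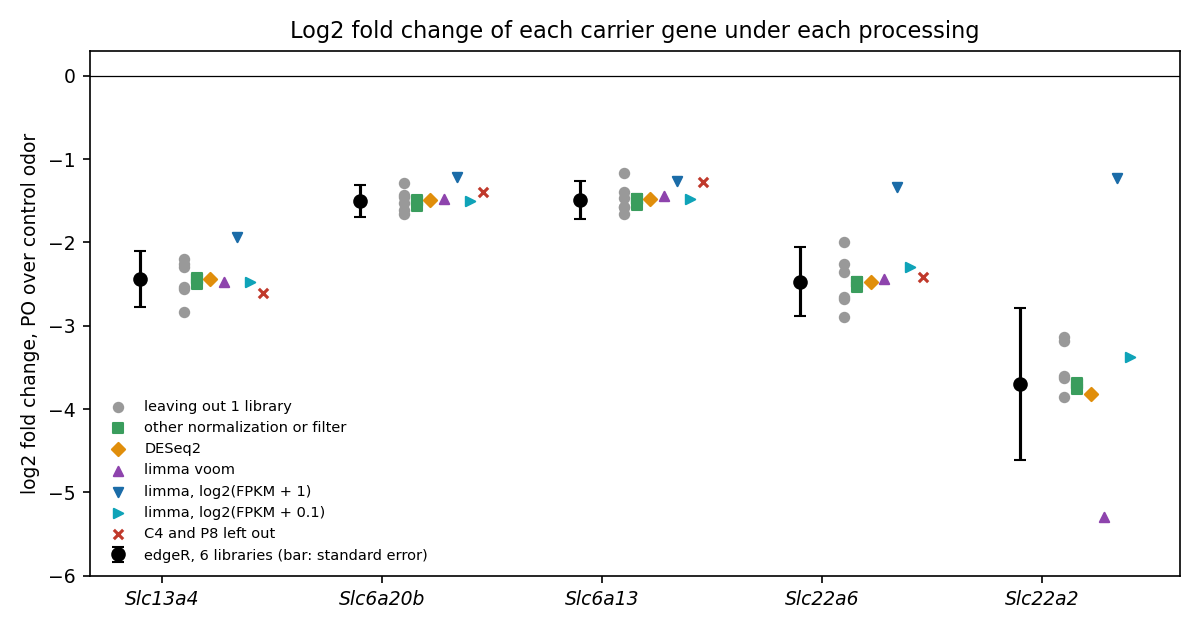
Log2 fold change, PO over control odor (vertical axis), of each carrier gene (horizontal axis) from edgeR on all 6 libraries (black, with its standard error) and under each other processing, including each library left out (grey). All points lie below 0, where genes chosen for a fall and without overlap of the groups would lie anyway. *Slc22a2* moves most, from -1.23 with limma on log2(FPKM + 1) to -5.3 with limma voom.

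Within a group the libraries also differed. P8 was the highest PO library for all 5 genes and C4 the highest control odor library for all 5, whereas over all genes tested P8 led the PO libraries in 30.8% and C4 led the control odor libraries in 36.1%. The 5 genes share these libraries, so they are not 5 separate observations. In *Slc13a4* P8 reached 1.96 times the mean of P13 and P14, and in *Slc22a6* 1.98 times, against 1.24 and 1.22 times in *Slc6a20b* and *Slc6a13*. C4 reached between 1.21 times (*Slc22a2*) and 2.18 times (*Slc22a6*) the mean of C2 and C3. The coefficient of variation of *Slc13a4* was 42.3% in the PO group, where counting error alone gives 9.9%, and 26.6% in the control odor group, where it gives 4.35%. For *Slc6a13* it was 12.9% after PO, near the 9.14% of counting error, and 34.1% after control odor, above 5.57%.

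The summed level of the 5 genes was 9.43, 6.42 and 6.52 FPKM in P8, P13 and P14, against 22.5, 25.4 and 38.0 FPKM in C2, C3 and C4. The order within a library also differed by group. In all 3 PO libraries it ran, from high to low, *Slc6a13*, *Slc6a20b*, *Slc13a4*, *Slc22a6* and *Slc22a2*. *Slc13a4* lay below *Slc6a20b* in each of these, but above it in each control odor library, and in C2 also above *Slc6a13*. Across libraries, the mean and SD of some neighbours in that order overlapped, which does not bear on the order within a library. After PO, *Slc6a20b* at 2.27 ± 0.304 FPKM and *Slc13a4* at 1.45 ± 0.624 FPKM overlapped (SD, n = 3), and after control odor *Slc6a13*, *Slc13a4* and *Slc6a20b* all overlapped. *Slc22a6* and *Slc22a2* lay below the other 3 in all 6 libraries, and *Slc22a2* below *Slc22a6*.

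**Figure D3:**
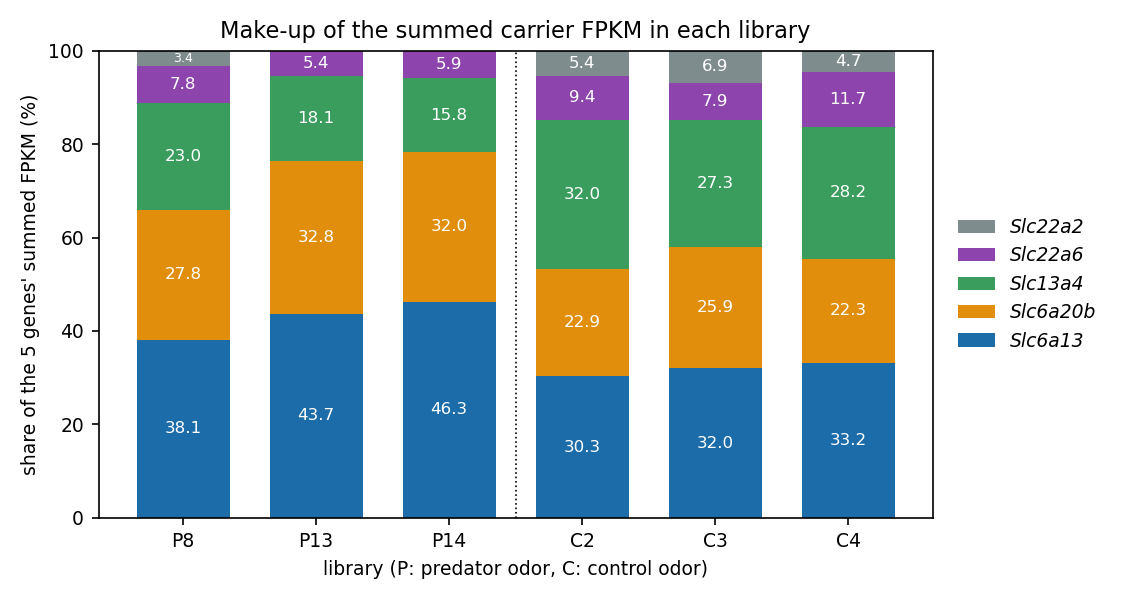
Share of each gene in the summed FPKM of the 5 carrier genes (vertical axis, percent, from 0) in each library (horizontal axis, PO left of the dotted line). *Slc13a4* takes 15.8% to 23.0% in the PO libraries and 27.3% to 32.0% in the control odor libraries, and *Slc6a13* 38.1% to 46.3% and 30.3% to 33.2%.

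The make-up of the sum shifted between the groups in step with the tiers. *Slc13a4* made up 15.8% to 23.0% of it in the PO libraries, against 27.3% to 32.0% in the control odor libraries. *Slc22a6* made up 5.37% to 7.75%, against 7.94% to 11.7%. The Slc6 genes took the larger part after PO, with *Slc6a13* at 38.1% to 46.3%, against 30.3% to 33.2%, and *Slc6a20b* at 27.8% to 32.8%, against 22.3% to 25.9%. None of these 4 shares overlapped between the groups, which follows from the unequal fold changes and adds no evidence of its own.

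A pair of genes kept nearly the same ratio everywhere. *Slc6a20b* over *Slc6a13*, in FPKM, was 0.73, 0.75 and 0.69 in P8, P13 and P14, against 0.755, 0.809 and 0.671 in C2, C3 and C4. The highest of these was 1.2 times the lowest, and the groups overlapped. *Slc13a4* over *Slc22a6* held nearly as closely, between 2.66 and 3.37 in the PO libraries, against 2.41 to 3.44 in the controls, a spread of 1.42 times. Across the pairs the ratio did move. *Slc13a4* over *Slc6a13* was 0.604, 0.414 and 0.34 in P8, P13 and P14, against 1.05, 0.854 and 0.85 in C2, C3 and C4, a spread of 3.1 times with no overlap.

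The same pairing appeared when each gene was compared with all others. This is no separate evidence for the pairing, since the measure follows the same ratios over the same libraries. Likeness was measured as the root mean square difference of log2 CPM, each gene centred on its own mean over the 6 libraries, so that 0 means the same pattern. Between *Slc6a20b* and *Slc6a13* it was 0.0876, and each was the nearest of 16684 genes to the other. Between *Slc13a4* and *Slc22a6* it was 0.196, which made *Slc13a4* the nearest gene to *Slc22a6* and *Slc22a6* the second nearest to *Slc13a4*. Distances across the pairs lay between 0.524 and 0.583. *Slc22a2*, whose zeros depend on the prior count of 2, was 1.0 from *Slc13a4*, its nearest member and only rank 12 among all genes. Since genes chosen for a fall share that fall, likeness was also taken after removal of each group's mean, a measure added after the data were seen. *Slc6a13* then ranked 21 of 16684 from *Slc6a20b* and *Slc6a20b* ranked 11 from *Slc6a13*, at a distance of 0.0853. *Slc13a4* ranked 13 from *Slc22a6* and *Slc22a6* ranked 86 from *Slc13a4*, at 0.186. The pairs were less distinct on this measure when seen from *Slc22a6*, where *Slc6a13* ranked 70 and *Slc6a20b* 182. From *Slc13a4*, *Slc6a20b* ranked 345 and *Slc6a13* 409. In the other direction the ranks were further down the list, although each distance is the same both ways. From *Slc6a20b*, *Slc22a6* ranked 10076 and *Slc13a4* 6593, and from *Slc6a13* they ranked 2071 and 2632. *Slc22a2* ranked far down when seen from the others, at 15666 from *Slc13a4* and 16448 from *Slc6a20b*. Seen from *Slc22a2*, however, *Slc13a4* ranked 139, *Slc22a6* 278, *Slc6a20b* 1216 and *Slc6a13* 1617. These ranks describe 6 libraries that share a group of rats each, and carry no test.

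Among the features with a name, the nearest to *Slc6a20b* were *Col5a1*, a chain of type V collagen, at 0.125, *Colec12*, a scavenger receptor with a collagen-like stalk, at 0.211, and *Tnnt2*, the cardiac form of troponin T, at 0.213. The nearest to *Slc6a13* were *Col5a1* at 0.184, *Crabp2*, a binding protein for retinoic acid, at 0.201, and *Tnnt2* at 0.219. *Col5a1* had 3.5, 2.32 and 2.51 CPM in P8, P13 and P14, against 6.74, 7.78 and 8.84 CPM in C2, C3 and C4, with a log2 fold change of -1.48. Its groups did not overlap, and P8 and C4 again led theirs.

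Nearest to *Slc13a4* were *Cyp26b1*, an enzyme that breaks down retinoic acid, at 0.177, *RT1-Ba*, a class II histocompatibility chain, at 0.231, and *Igfbp2*, which binds insulin-like growth factors, at 0.243. *Slc22a6* had *Cyp26b1* at 0.238, *Igfbp2* at 0.294 and *RT1-Bb*, another class II chain, at 0.389. *Cyp26b1* had 2.9, 1.82 and 1.2 CPM in P8, P13 and P14, against 9.4, 7.72 and 16.3 CPM in C2, C3 and C4, with P8 and C4 in the lead there as well. Nearest to *Slc22a2* were *Osr1*, a zinc finger transcription factor, at 0.668, *Cdh1*, the adhesion protein E-cadherin, at 0.784, and *Igfbp2* at 0.921. Only genes that the study called carry names here, so the genes listed are drawn from those. Of all 16680 genes tested that are none of the 5, *Col5a1* was the nearest to *Slc6a20b* and *Cyp26b1* to both *Slc13a4* and *Slc22a6*, while unnamed genes lay nearer to *Slc6a13* and *Slc22a2* than those listed.

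**Figure D4:**
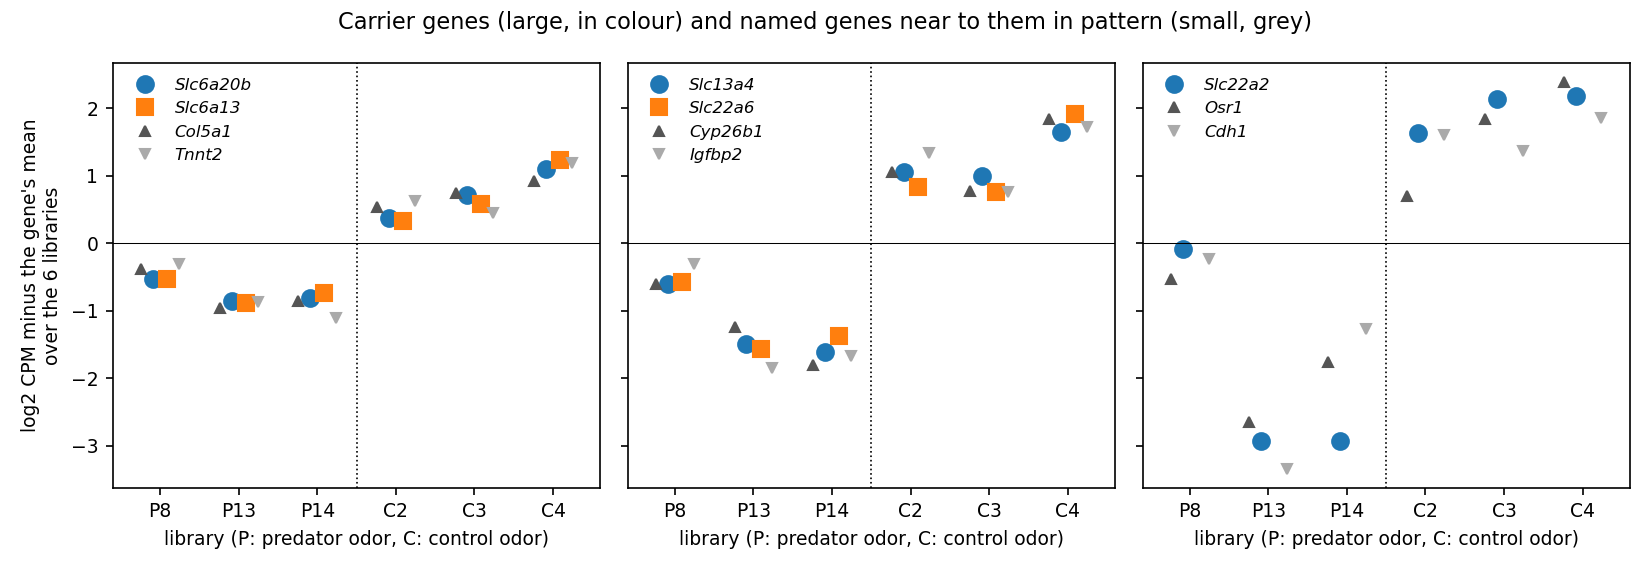
Log2 CPM of each gene minus its own mean over the 6 libraries (vertical axis) by library (horizontal axis, PO left of the dotted line), for the carrier genes (large, in colour) and a pair of named genes near to them (small, in grey). *Slc6a20b* and *Slc6a13* nearly coincide in every library, *Slc13a4* and *Slc22a6* lie farther from 0 in both groups, and *Slc22a2* is lowest in P13 and P14, where it had no counts.

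A few markers of cell types that line the brain carry a name, and 2 of them passed edgeR's test. Of 18 markers of leptomeningeal fibroblasts, 7 carry a name (*Col1a1*, *Col1a2*, *Col3a1*, *Crabp2*, *Fmod*, *Gjb2* and *Igfbp2*), and their summed level was 30.8, 17.0 and 16.4 FPKM in P8, P13 and P14, against 82.5, 59.1 and 101 FPKM in C2, C3 and C4. P8 and C4 led their groups in this sum as in the carriers, but among the single markers only *Crabp2*, *Gjb2* and *Igfbp2* had both in the lead. C2 was the highest control in *Col1a1*, *Col1a2* and *Col3a1*, and P14 the highest PO library in *Fmod*. All 7 had a lower mean after PO with a median log2 fold change of -1.48, and *Col3a1* (adjusted p = 0.027) and *Crabp2* (adjusted p = 0.0481) passed edgeR's test as lower, as did 0.21% of all genes, while the other 5 did not (adjusted p between 0.0519 and 0.222). The names come from genes called in these libraries, so the count is not independent evidence of direction. Of 8 arachnoid barrier markers, *Cdh1* alone carries a name, at 0.19, 0 and 0.0781 FPKM in P8, P13 and P14, against 0.779, 0.661 and 0.916 FPKM in C2, C3 and C4, and it did not pass (adjusted p = 0.0842 by edgeR). Thus the name barrier for these carriers rests on background and could not be checked against the other 7 markers.

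The single named markers of the other linings lay the other way. *Folr1*, the folate receptor of the choroid plexus and 1 of 12 markers listed for it, had 8.79, 18.8 and 9.21 FPKM in P8, P13 and P14, against 5.83, 4.32 and 4.2 FPKM in C2, C3 and C4. *Tp73*, a transcription factor of multiciliated cells and 1 of 8 ependymal markers, had 1.27, 2.95 and 0.795 FPKM in the PO libraries, against 0.746, 0.359 and 0.424 FPKM in the control odor libraries. Neither passed edgeR's test, and P13 was the highest library in both, unlike in the carriers. The part of these cell types in the levels of the 5 carriers was not tested, and in bulk tissue fewer cells of a type and less RNA per cell cannot be told apart.

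Of the other solute carriers, 3 carry a name. *Slc44a4*, a carrier of the choline transporter-like family, had 4.95, 15.1 and 4.73 CPM in P8, P13 and P14, against 1.87, 2.45 and 2.37 CPM in C2, C3 and C4, and its log2 fold change of 1.88 did not pass edgeR's test (adjusted p = 0.133). The neuronal glucose carrier *Slc2a3* had 0.55, 2.76 and 0.419 CPM in the PO libraries, against 3.79, 4.17 and 5.55 CPM in the control odor libraries, and its log2 fold change of -1.85 did not pass either (adjusted p = 0.202 by edgeR). *Slc25a33*, a mitochondrial carrier of pyrimidine nucleotides, had 83.6, 78.4 and 69.3 CPM, against 59.4, 63.0 and 61.9 CPM, with a log2 fold change of 0.33 (adjusted p = 0.0693 by edgeR). P13 was the high PO library in *Slc44a4* and *Slc2a3*, and P8 in *Slc25a33* as in the 5 carriers. The 45 other Slc6, Slc13 and Slc22 genes of the rat, and the lists for GABA handling, sulfate transport and organic ion transport, had no named feature, so they were not analysed here.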

How the data were processed

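VMH RNA of 6 rats was sequenced as 1 library per rat. The authors filtered reads, aligned them with HISAT2 to Rnor_5.0 and deposited raw counts per gene made with HTSeq. FPKM values were computed by the authors from these counts (each library's values fit 1 length per gene). The deposited quality table gives percent values of bases, and the deposited mapping table gives read numbers with percent of reads in 1 cell. The authors' tables of tests hold fold changes and p-values of their own comparison, which were not used. Per the submitters' processing notes, CASAVA 1.8 and DESeq were also used.

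All features were fitted with edgeR 4.0.16 (R 4.3.3) on the counts, with TMM scaling, filterByExpr and a robust quasi-likelihood fit, with Benjamini-Hochberg adjustment over 16685 genes and a threshold of 0.05. Standard errors were derived from its F statistic. DESeq2 1.42.0, limma 3.58.1 (voom, and log2 FPKM with a pseudocount of 1 or 0.1), other scalings, no filter, Ensembl genes alone and each library left out were alternatives. The code was tested on simulated data with 200 changed genes. A floor of 3 counts per library was used for a count of 0. Python 3.11.15 and Matplotlib 3.10.9 made the tables and figures.

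The 5 genes, the marker lists and the transport lists were chosen with earlier results of these data known. The plan was to name the 5 carriers and, for each, the 3 named genes nearest in pattern. Genes of the transport lists past the threshold (or the 3 with the highest mean FPKM) were also planned, but none carried a name. The other named carriers and the named markers were added after their values were seen. Names came from the study's table (40 IDs), the deposited list of called genes (125) and the authors' KEGG table (5). The Ensembl column of the RefSeq gene table was empty, so the 5 transport lists, the 45 other family genes and 11 of 15 marker lists had no named gene and gave no value. Motifs were searched on both strands. Protein sequences were not used here.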

Additional observations from a re-analysis of the deposited data

How the results depend on the processing

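The log2 fold changes of the 5 carriers were recomputed under each alternative, giving 73 values, and none changed sign. The genes were chosen as lower after PO and their groups did not overlap, so the kept sign adds no evidence. Of these, 69 stayed within 1 SD between replicates of the value reported. The exceptions were limma on log2(FPKM + 1), which gave -1.93 for Slc13a4, -1.33 for Slc22a6 and -1.23 for Slc22a2, where the pseudocount shrinks genes of low level, and limma voom, which gave -5.3 for Slc22a2. With each library left out in turn, the ranges were -2.84 to -2.2 (Slc13a4), -1.66 to -1.29 (Slc6a20b), -1.66 to -1.17 (Slc6a13), -2.89 to -1.99 (Slc22a6) and -3.86 to -3.13 (Slc22a2). Counts of all genes past the threshold moved more. Against 24 higher and 35 lower after PO, there were 247 and 186 with no filter on low counts, 580 and 285 by DESeq2, 7 and 9 by limma voom, and 2 and 0 by limma on log2(FPKM + 1) and on log2(FPKM + 0.1). At an unadjusted p of 0.05 these last 2 gave 985 and 984 higher and 2337 and 2326 lower genes, against 1694 higher and 1605 lower by edgeR. Library size alone gave 87 lower, and leaving out C4 and P8 together gave 12 higher. Leave-one-out counts ran from 4 (without C2) to 187 (without P13) for higher and from 3 (without P14) to 79 (without P13) for lower genes. The cause of these moves was not tested. No paired analysis was possible because the groups share no replicate number. Depth limits Slc22a2 most, with 14 counts in the whole PO group. P-values measure the spread between 3 rats a group, and intervals and floors cover counting error only.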
